A study of Mus musculus with 7 samples.

Results

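Genes that mark monocytes and macrophages were followed in spleen cell preparations enriched for natural killer (NK) cells. The 45 genes were chosen by name, with earlier results of these data known, and taken from probes that carry a single gene symbol. Of these, 44 were measured, out of 19752 genes in all, each by 1 probe, and Ear2 was not analysed here. They were divided by the cells they are known from into 16 monocyte genes, 15 tissue macrophage genes and 13 shared myeloid genes. Most of the tissue macrophage genes are known from red pulp macrophages of the spleen. The subsets are not exclusive, as macrophages also carry Adgre4, Cd36 and Treml4, and monocytes carry Adgre1. Every preparation came from spleens of C57BL/6 males aged 6 weeks and was enriched by EasySep negative selection, which removes other cell types and leaves the NK cells untouched. The cells were then kept in culture for 8 h, either with interleukin 2 (IL2) at 250 U/ml (4 arrays, replicates 1 to 4) or untreated (3 arrays, replicates 2 to 4). RNA was measured on Affymetrix Mouse Gene 1.0 ST arrays, 1 per sample. The labels give NK1.1 as the marker of the cells and mark the arrays as re-analysed. The comparison asks which transcripts differ between such cells with and without IL2.

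Monocytes arise in the bone marrow and circulate through blood and spleen, where classical monocytes can enter tissue and patrolling monocytes survey the vessel wall. Red pulp macrophages are resident cells that engulf old red blood cells and return their iron to the blood, and their development depends on the transcription factor SPIC. Both lineages carry the growth factor receptor CSF1R, and both are built by the transcription factor PU.1, with C/EBP factors most prominent in monocytes. NK cells are lymphocytes and are not known for most of these genes, although some members are also active in lymphocytes, such as Spi1 in B cells and the cathepsins.

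The median intensity per array lay between 121 and 131, and the labels leave unsaid if the replicates are different mice or cultures. P-values therefore reflect no more than the spread among these arrays, which may be technical. The sample titles come in 2 styles. Those of replicates 3 and 4 of both groups give the time in culture. Those of untreated replicate 2 and of IL2 replicates 1 and 2 do not, and 8 h was taken from their other labels. Intensities were used on the log2 scale, and all levels below are log2 intensities. Of the 44 members, 9 had exactly equal values on arrays of the same group, which lowers the measured spread, and 0 of the called members did.

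After 8 h with IL2, 14 of the 44 members were lower and 0 were higher (limma, Benjamini-Hochberg adjusted p under 0.05 over all genes, here termed called), against 0.901% of all genes lower and 2.08% higher. The largest differences were in Adgre4, Vcan and Cd36, known from monocytes, at 7.99-fold, 7.98-fold and 5.98-fold lower. By subset, 9 of 16 monocyte genes, 4 of 13 shared myeloid genes and 1 of 15 tissue macrophage genes fell. The median log2 fold changes were -1.39, -0.67 and -0.27, beside -0.01 over all genes tested. At an unadjusted p under 0.05 there were 29 members lower and 1 higher, beside 922 and 1740 of all 19752 genes. A log2 fold change below 0 was found in 39 of 44 members, beside 10740 of all genes. Every IL2 array lay below every untreated array for 26 members, against 3.38% of all genes. In bulk RNA, fewer cells of a type and less RNA per cell cannot be told apart. The members and subsets were chosen with earlier results of these data known, so these counts are a description and no independent test.

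**Figure D1:**
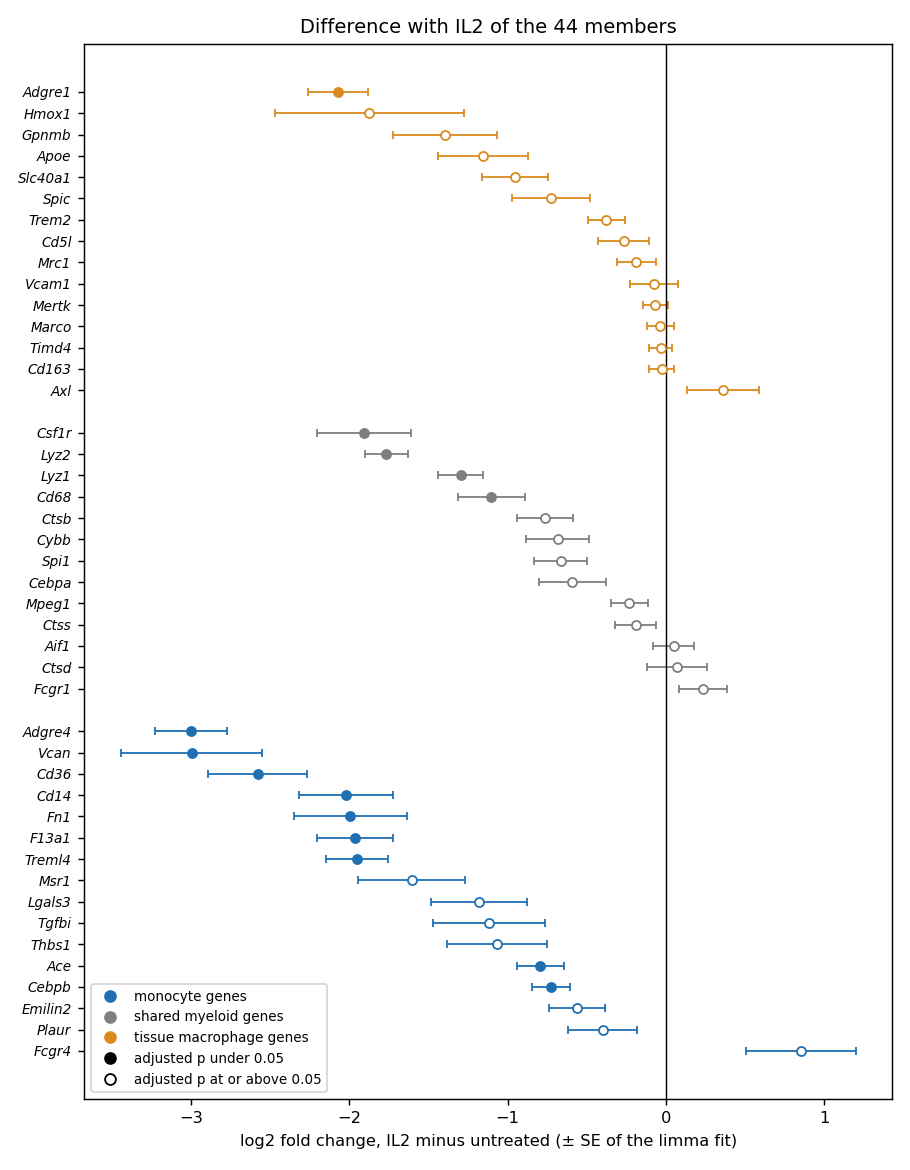
Log2 fold change (IL2 minus untreated, horizontal axis) of each of the 44 members with the SE of the limma fit as error bars, grouped by subset and coloured by it; filled points passed an adjusted p of 0.05. The 14 filled points all lie left of 0, 9 of them among the monocyte genes and 1, Adgre1, among the tissue macrophage genes.

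The number of falls depended on the fit. With the style of the titles as a block 23 members were lower, and after a second quantile normalization 25 were, while the lower genes among all 19752 went from 178 to 247 and 577. With the 4 arrays of time-giving titles alone 6 members and 22 of all genes were lower. The other 3 hold a single untreated array, so only the size of the difference is given for them. Their median log2 difference was -0.98 for the members and 0.02 for all genes. The count was 7 without IL2 replicate 2 (65 of all genes) or untreated replicate 4 (79) and 8 without IL2 replicate 3 (90).

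Sequences upstream of the start are shown for called members because these genes fell and because PU.1 and C/EBP are well known factors acting on such genes. They come from RefSeq on GRCm38.p6, where 33 of the 44 members had an entry, 10 of them called. The 250 bases before each start were searched on both strands for the PU.1 and ETS core GAGGAA, the C/EBP motif TTGCNCA and the core TGANTCA shared by AP-1 and Maf factors, none of which overlapped another here. The first was present in 4 of the 10 called genes, the next in 2 and the last in 1, beside 25.9%, 13.4% and 7.82% of all genes with an entry. Among all 33 members with an entry, called or not, they were present in 15, 4 and 4. A match of letters is a description and shows no binding. The 5 genes of largest change that hold a match are printed 5′ to 3′ with the matches in capitals, together with Lyz1, the neighbouring copy of Lyz2.
F13a1 (chr13:37050245-37050494, minus strand): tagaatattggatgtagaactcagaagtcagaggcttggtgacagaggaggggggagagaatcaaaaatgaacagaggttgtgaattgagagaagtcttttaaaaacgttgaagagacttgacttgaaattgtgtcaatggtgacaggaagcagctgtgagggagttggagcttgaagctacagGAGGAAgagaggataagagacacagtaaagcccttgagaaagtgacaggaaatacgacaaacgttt
Treml4 (chr17:48264045-48264294, plus strand): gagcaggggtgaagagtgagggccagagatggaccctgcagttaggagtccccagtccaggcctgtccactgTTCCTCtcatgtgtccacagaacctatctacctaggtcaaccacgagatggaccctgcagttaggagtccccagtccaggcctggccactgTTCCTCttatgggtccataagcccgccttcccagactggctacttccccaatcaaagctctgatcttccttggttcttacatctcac
Lyz2 (chr10:117282273-117282522, minus strand): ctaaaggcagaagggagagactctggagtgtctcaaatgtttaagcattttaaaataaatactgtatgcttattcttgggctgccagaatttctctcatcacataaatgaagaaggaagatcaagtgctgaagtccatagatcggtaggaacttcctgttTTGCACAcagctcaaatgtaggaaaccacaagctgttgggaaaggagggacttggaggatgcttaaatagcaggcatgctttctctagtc
Lyz1 (chr10:117292869-117293118, minus strand): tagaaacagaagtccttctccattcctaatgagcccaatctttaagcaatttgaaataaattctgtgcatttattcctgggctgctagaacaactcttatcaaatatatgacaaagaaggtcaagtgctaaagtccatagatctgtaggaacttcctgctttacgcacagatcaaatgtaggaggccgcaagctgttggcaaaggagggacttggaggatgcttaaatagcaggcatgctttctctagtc
Cd68 (chr11:69666171-69666420, minus strand): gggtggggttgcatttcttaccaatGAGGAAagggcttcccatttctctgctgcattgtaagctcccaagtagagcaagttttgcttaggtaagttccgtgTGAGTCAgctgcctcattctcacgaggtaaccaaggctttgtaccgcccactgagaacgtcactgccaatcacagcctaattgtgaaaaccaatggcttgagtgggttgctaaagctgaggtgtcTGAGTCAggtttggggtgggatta
Ace (chr11:105967698-105967947, plus strand): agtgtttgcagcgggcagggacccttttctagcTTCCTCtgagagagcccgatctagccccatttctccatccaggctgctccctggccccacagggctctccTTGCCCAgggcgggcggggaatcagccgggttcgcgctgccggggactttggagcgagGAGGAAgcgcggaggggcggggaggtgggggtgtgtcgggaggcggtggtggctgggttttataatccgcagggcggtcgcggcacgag
F13a1 has another listed start whose window held no match, and so does Ace. In F13a1 the match is to the PU.1 and ETS core, as are both in Treml4, which read TTCCTC on the strand shown. Cd68 holds that core once and the AP-1 and Maf core at 2 places, and Ace holds the PU.1 and ETS core at 2 places with a C/EBP match between them. The windows of Lyz1 and Lyz2 lie 10.6 kb apart, and the C/EBP match of Lyz2 is not in that of Lyz1. Compared position by position with no gaps, which can understate their likeness, they share the same base at 152 of 250 positions. No match was found in the windows of Adgre4, Vcan, Cd36 and Cebpb.

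Among the lineage regulators, Csf1r and Cebpb fell, and Spi1, Cebpa and Spic did not pass the test. Csf1r encodes the receptor for CSF1 and IL34 on monocytes and macrophages. It read 10.59, 10.19 and 10.80 in untreated replicates 2, 3 and 4 and 7.93, 8.45, 8.90 and 9.20 in IL2 replicates 1 to 4. The groups did not overlap, and both IL2 arrays without the time in the title were the lowest. It fell 3.75-fold, from 10.53 ± 0.31 (SD, n = 3) to 8.62 ± 0.55 (SD, n = 4), a log2 fold change of -1.91 (limma adjusted p = 0.0164, SE 0.30). Cebpb, a C/EBP factor that patrolling monocytes depend on, read 8.32, 8.54 and 8.55 untreated (replicates 2, 3 and 4) against 7.61, 7.62, 7.75 and 7.997 with IL2 (replicates 1 to 4). It fell by 0.73 on the log2 scale (limma adjusted p = 0.0199, SE 0.12), with the groups apart. Spi1, which encodes PU.1 and is also active in B cells, differed by -0.67 (limma adjusted p = 0.101, SE 0.17) and Cebpa, a factor of early myeloid cells, by -0.59 (limma adjusted p = 0.256, SE 0.21). With the title style as a block Spi1 passed the test (limma adjusted p = 0.0379). Spic differed by -0.72 (limma adjusted p = 0.231, SE 0.25).

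Of 11 lysosome, phagosome and antimicrobial genes, 3 fell, both lysozymes and Cd68. Lyz2, the lysozyme of monocytes, macrophages and neutrophils, read 12.64, 12.78 and 12.56 in untreated replicates 2, 3 and 4 and 10.72, 10.68, 10.99 and 11.17 in IL2 replicates 1 to 4. All 4 IL2 arrays lay well under the untreated ones, which were close together. The fall was 3.4-fold (-1.77, limma adjusted p = 0.00109, SE 0.14). Lyz1, its copy best known from Paneth cells of the gut, read 8.92, 8.88 and 8.43 untreated (replicates 2, 3 and 4) against 7.53, 7.22, 7.48 and 7.55 with IL2 (replicates 1 to 4). It fell 2.46-fold (-1.30, limma adjusted p = 0.00426, SE 0.14). The probes of such close copies can share signal, so that a fall of Lyz1 of its own is uncertain. Cd68, a glycoprotein of the late endosome of macrophages, read 9.93, 9.75 and 10.004 untreated (replicates 2, 3 and 4) against 8.32, 8.62, 8.99 and 9.24 with IL2 (replicates 1 to 4). It fell 2.15-fold (-1.10, limma adjusted p = 0.037, SE 0.21), again with no overlap.

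The other degradative genes did not pass the test. Cybb, the catalytic subunit of the phagocyte NADPH oxidase, read 12.24, 11.83 and 12.11 in untreated replicates 2, 3 and 4 and 10.99, 11.16, 11.75 and 11.60 in IL2 replicates 1 to 4. The groups were apart, at -0.68 (limma adjusted p = 0.157, SE 0.20). Ctsd, an aspartic protease of lysosomes in most cells, read 10.95, 10.54 and 10.88 untreated (replicates 2, 3 and 4) against 10.40, 10.97, 10.88 and 11.17 with IL2 (replicates 1 to 4). Those values overlapped, at 0.07 (limma adjusted p = 0.928, SE 0.19). The cysteine proteases Ctsb and Ctss, the latter also active in B cells and dendritic cells, differed by -0.77 (limma adjusted p = 0.0714, SE 0.18) and -0.19 (limma adjusted p = 0.631, SE 0.13). Mpeg1, a pore-forming protein of phagocytes, differed by -0.23 (limma adjusted p = 0.483, SE 0.12), and Aif1, an actin-bundling protein, by 0.05 (limma adjusted p = 0.929, SE 0.13). Lgals3, which encodes galectin-3, was the brightest monocyte gene that was not called. It read 10.73, 11.496 and 11.22 in untreated replicates 2, 3 and 4 and 9.41, 9.63, 10.24 and 10.57 in IL2 replicates 1 to 4, with the groups apart but the IL2 arrays spread by title style, at -1.18 (limma adjusted p = 0.107, SE 0.30). With that style as a block it passed the test, at -1.05 (limma adjusted p = 0.00871). Gpnmb, a membrane glycoprotein of lipid-laden macrophages, differed by -1.40 (limma adjusted p = 0.0778, SE 0.33).

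**Figure D2:**
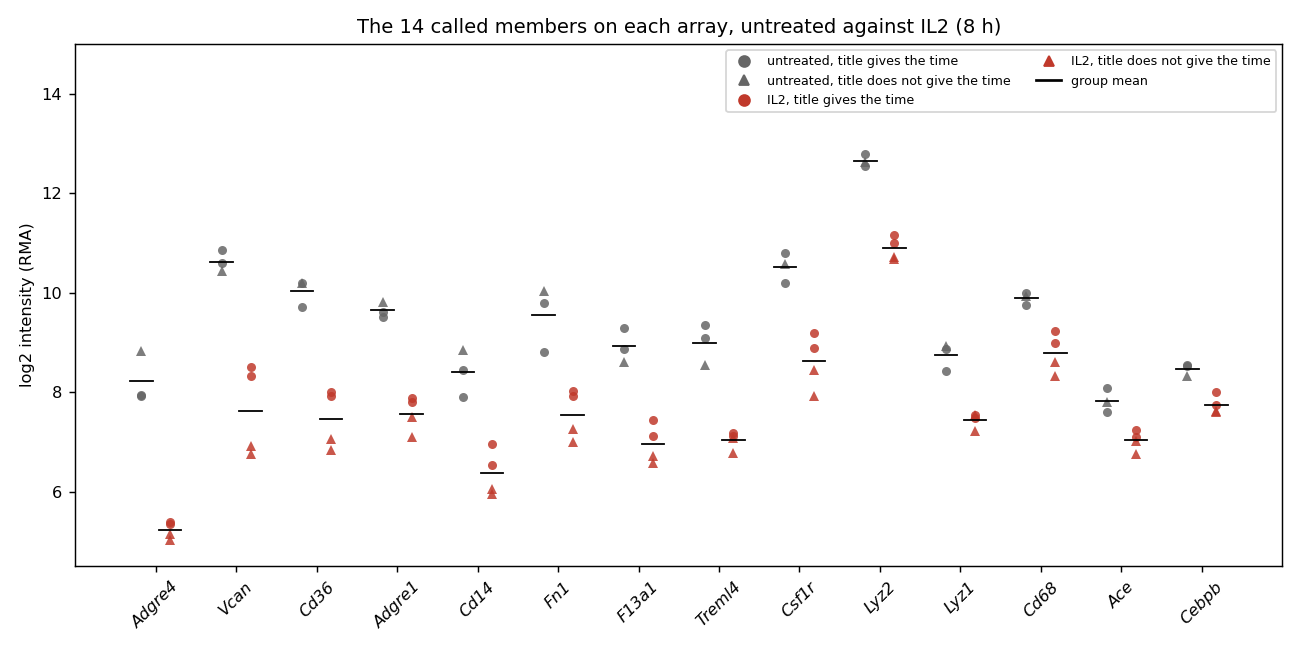
Log2 intensity (vertical axis) of the 14 called members on each array, untreated in grey and IL2 in red, with circles for titles that give the time, triangles for titles that do not, and bars for group means. For all 14 genes every red point lies below every grey point, and for 13 of them both red triangles lie below both red circles.

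Genes of matrix, adhesion and coagulation held the 2 largest falls, with 5 of 10 called. Vcan, the large proteoglycan versican made by classical monocytes, read 10.43, 10.60 and 10.85 in untreated replicates 2, 3 and 4 and 6.77, 6.93, 8.51 and 8.32 in IL2 replicates 1 to 4. Untreated arrays were tight, while the IL2 arrays formed a higher and a lower pair. The mean went from 10.63 ± 0.21 (SD, n = 3) to 7.63 ± 0.91 (SD, n = 4), 7.98-fold lower (-2.996, limma adjusted p = 0.0143, SE 0.45). Adgre4, an adhesion receptor of patrolling monocytes and some macrophages, read 8.83, 7.92 and 7.94 untreated (replicates 2, 3 and 4) against 5.16, 5.02, 5.35 and 5.39 with IL2 (replicates 1 to 4). Its IL2 arrays were close together and it fell 7.99-fold (-2.999, limma adjusted p = 0.00109, SE 0.23). F13a1, the A chain of coagulation factor XIII and a classical monocyte gene that platelets also carry, read 8.62, 8.87 and 9.30 in untreated replicates 2, 3 and 4 and 6.72, 6.58, 7.12 and 7.44 in IL2 replicates 1 to 4. It fell 3.9-fold (-1.97, limma adjusted p = 0.00632, SE 0.24). Fn1, fibronectin, read 10.04, 8.80 and 9.79 untreated (replicates 2, 3 and 4) against 7.25, 7.003, 8.03 and 7.92 with IL2 (replicates 1 to 4). The groups were apart but both were wide, and Fn1 fell 3.98-fold (-1.99, limma adjusted p = 0.0293, SE 0.36). The other called gene of this role is Adgre1, described with the macrophage genes.

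The remaining matrix and adhesion genes of monocytes were not called. Thbs1, the secreted matrix protein thrombospondin-1, which platelets also hold, read 10.92, 9.54 and 9.94 in untreated replicates 2, 3 and 4 and 8.72, 8.96, 9.41 and 9.17 in IL2 replicates 1 to 4. Untreated replicate 2 was far above the others, the groups did not overlap, and the difference was -1.07 (limma adjusted p = 0.163, SE 0.32). Tgfbi, a matrix protein induced by TGF-beta, differed by -1.12 (limma adjusted p = 0.193, SE 0.35), and Emilin2, an elastin-associated protein, by -0.56 (limma adjusted p = 0.196, SE 0.18), both with the groups apart. Tgfbi passed the test with the title style as a block (limma adjusted p = 0.0337). Plaur, the urokinase receptor, differed by -0.40 (limma adjusted p = 0.525, SE 0.22) with overlapping arrays. Platelet and megakaryocyte markers, which F13a1 and Thbs1 partly share, had 0 of 7 genes called by limma, 2 lower at an unadjusted p under 0.05 and 1 called lower without untreated replicate 2, and summed to between 3714 and 5068 in untreated and between 2945 and 3635 in IL2 arrays on the linear scale, a part in these results that was not tested.

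Among receptors of monocytes, 3 more fell and the Fc receptor genes were not called. Cd14, the co-receptor for bacterial lipopolysaccharide, read 8.85, 7.91 and 8.44 in untreated replicates 2, 3 and 4 and 6.05, 5.95, 6.55 and 6.97 in IL2 replicates 1 to 4. It fell 4.06-fold, from 8.40 ± 0.47 (SD, n = 3) to 6.38 ± 0.47 (SD, n = 4) (-2.02, limma adjusted p = 0.0136, SE 0.30). Treml4, a receptor of patrolling monocytes and splenic macrophages that binds dead cells, read 8.54, 9.08 and 9.36 untreated (replicates 2, 3 and 4) against 6.77, 7.09, 7.12 and 7.18 with IL2 (replicates 1 to 4). Its IL2 arrays were within a narrow range and it fell 3.87-fold (-1.95, limma adjusted p = 0.0025, SE 0.19). Cd36, a scavenger receptor for oxidised lipids and dying cells that monocytes, macrophages and platelets carry, read 10.20, 10.19 and 9.72 in untreated replicates 2, 3 and 4 and 6.83, 7.05, 7.93 and 8.01 in IL2 replicates 1 to 4. It fell 5.98-fold (-2.58, limma adjusted p = 0.00632, SE 0.31). Msr1, a class A scavenger receptor, lay just outside the threshold at -1.61 (limma adjusted p = 0.052, SE 0.34) with the groups apart, and inside it with the title style as a block (limma adjusted p = 0.000267). Ace, the angiotensin-converting enzyme that patrolling monocytes express, read 7.80, 7.60 and 8.09 untreated (replicates 2, 3 and 4) against 7.03, 6.77, 7.09 and 7.25 with IL2 (replicates 1 to 4). It fell by 0.80 on the log2 scale (limma adjusted p = 0.0351, SE 0.15), and leaving out any 1 array ended the call.

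The 2 activating Fc receptors for IgG were among the 5 members with a positive log2 fold change. Fcgr4, carried by patrolling monocytes, macrophages and neutrophils, differed by 0.85 (limma adjusted p = 0.338, SE 0.35), the highest value of all members. Its untreated arrays ranged from 6.25 to 7.57 and its IL2 arrays from 7.31 to 8.30, so that the groups overlapped. With the replicate number as a block Fcgr4 was called higher, though whether these numbers pair the arrays is not settled. Fcgr1, the high-affinity receptor, differed by 0.23 (limma adjusted p = 0.609, SE 0.15). Both are known to be induced by interferon-gamma, and related Fc receptor genes could share probe signal. The other positive values were in Axl, Ctsd and Aif1.

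Of the tissue macrophage genes, Adgre1 alone was called. Adgre1 encodes an adhesion receptor of red pulp macrophages that monocytes carry at a lower level. It read 9.82, 9.62 and 9.504 in untreated replicates 2, 3 and 4 and 7.10, 7.501, 7.80 and 7.89 in IL2 replicates 1 to 4. All 3 untreated arrays were near each other and the IL2 arrays lay far below them. The mean went from 9.65 ± 0.16 (SD, n = 3) to 7.57 ± 0.35 (SD, n = 4), 4.21-fold lower (-2.07, limma adjusted p = 0.00181, SE 0.19). Among the 10 core red pulp genes, chosen by name, it was the 1 of 10 that fell, and 9 did not pass the test.

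Of the other tissue macrophage genes, Apoe and Hmox1 were the brightest, and neither passed the test. Apoe, the lipid carrier apolipoprotein E, read 11.24, 11.16 and 11.68 in untreated replicates 2, 3 and 4 and 9.62, 9.90, 10.54 and 10.76 in IL2 replicates 1 to 4. The groups were apart, at -1.15 (limma adjusted p = 0.0919, SE 0.28). Hmox1, the heme oxygenase that opens the ring of heme from old red blood cells, read 9.01, 10.35 and 10.42 untreated (replicates 2, 3 and 4) against 6.96, 7.33, 8.97 and 8.95 with IL2 (replicates 1 to 4). Untreated replicate 2 was barely above IL2 replicates 3 and 4, and the difference of -1.87 had a wide error (limma adjusted p = 0.197, SE 0.60). With the title style as a block it was -1.60 (limma adjusted p = 0.00187), and in both groups the arrays without the time in the title were the lowest. Slc40a1, the iron exporter ferroportin, differed by -0.95 (limma adjusted p = 0.0611, SE 0.21) and with that block by -1.03 (limma adjusted p = 0.0141). Gpnmb, Apoe and Spic also passed the test with the block, at limma adjusted p-values of 0.0247, 0.0367 and 0.0338. Trem2, a lipid-sensing receptor of tissue macrophages, differed by -0.38 (limma adjusted p = 0.175, SE 0.11).

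The differences of 7 further red pulp and macrophage genes, all below the median signal of all genes, lay between -0.27 and -0.03. Vcam1, which holds red pulp macrophages and stroma in contact with blood cells, differed by -0.08 (SE 0.15) and the dead cell receptor Mertk by -0.07 (SE 0.08). The hemoglobin scavenger receptor Cd163 differed by -0.03 (SE 0.08) and the mannose receptor Mrc1 by -0.19 (SE 0.12). The lipid-binding protein Cd5l differed by -0.27 (SE 0.16). For Timd4, which binds phosphatidylserine on dead cells, the difference was -0.03 (SE 0.07), and for Marco, a receptor of marginal zone macrophages, -0.04 (SE 0.08). Limma adjusted p-values of these 7 genes were between 0.584 and 0.93. Axl, another dead cell receptor and above that median, differed by 0.36 (SE 0.23), with untreated replicate 3 at 7.23 and the other 6 arrays between 8.15 and 8.33.

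Monocyte and tissue macrophage genes thus gave different medians, -1.39 against -0.27, but they also differed in signal. Of the 16 monocyte genes 15 had a mean intensity at or above the median of all genes, whereas 9 of the 15 tissue macrophage genes were below it. Those 9 were Slc40a1, Spic, Cd5l, Mrc1, Vcam1, Mertk, Marco, Timd4 and Cd163, with log2 fold changes between -0.95 and -0.03. The other 6 had values between -2.07 and 0.36, with a median of -1.28. The 1 monocyte gene below the median signal was Adgre4. The array values carry no detection call, and the difference between the 2 subsets was not tested. Nor are the subsets exclusive, with Adgre4, Cd36 and Treml4 of the monocyte genes also carried by macrophages. On the linear scale the 15 tissue macrophage genes summed to between 5615 and 7537 in untreated and between 2390 and 3916 in IL2 arrays. The 16 monocyte genes summed to between 10758 and 12130 and between 3089 and 5223.

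The style of the sample titles moved with the levels of many members. On the IL2 arrays, both arrays with the time in the title were above both without it for 31 of 44 members, against 36.1% of all genes. The gap was widest in Hmox1 and Vcan, at 1.82 and 1.57 on the log2 scale. In the untreated group this comparison rests on 1 array without the time. Within each style, 33 of 44 members had lower means with IL2 in both, beside 3822 of all 19752 genes. The medians with and without the time were -1.13 and -1.55 for monocyte genes, -0.47 and -0.75 for shared myeloid genes and -0.34 and -0.07 for tissue macrophage genes. The difference was lower without the time than with it for 34 of 44 members, beside 9988 of all 19752 genes. This held for 13 of the 14 called members, with Treml4 (-2.07 with and -1.61 without) the exception. Adgre4 had -2.56 and -3.74, Vcan -2.31 and -3.58, and Fn1 -1.32 and -2.92. Whether the effect of IL2 differs between title styles was not tested, and what the styles stand for is not given in the sources used here.

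**Figure D3:**
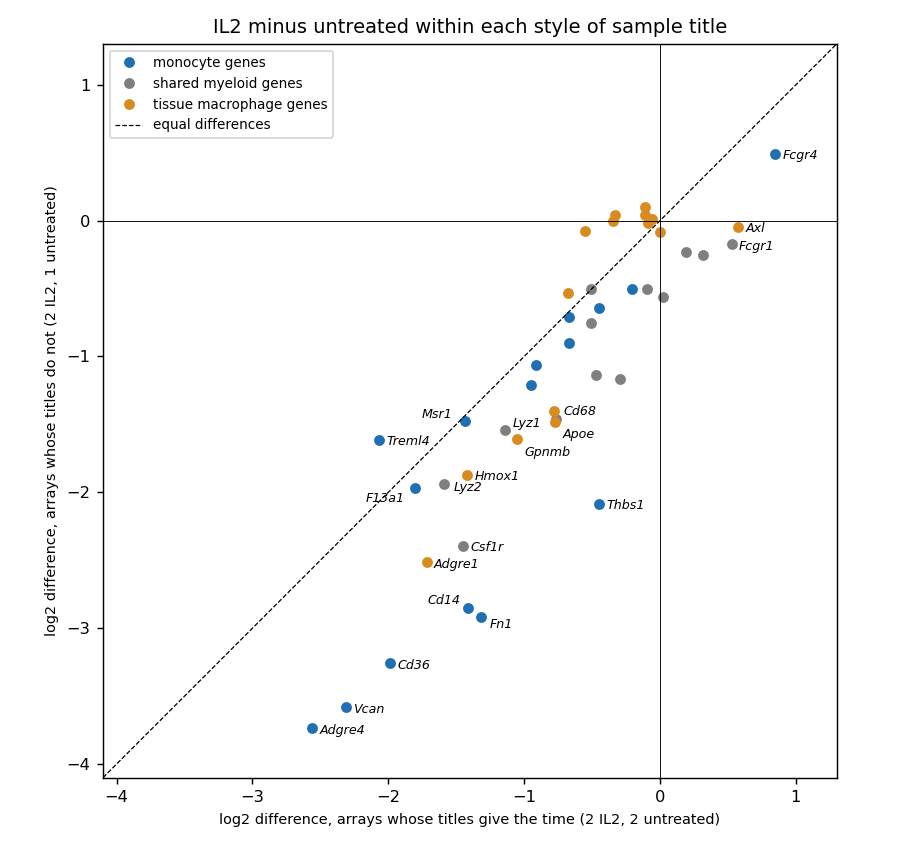
Log2 difference of each member (IL2 minus untreated) between arrays with the time in the title (horizontal axis, 2 arrays a group) against that over the other arrays (vertical axis, 2 IL2 and 1 untreated), coloured by subset, with a dashed line of equal differences. Of the 14 called members 13 lie below the line, and the tissue macrophage genes of small difference gather near 0.

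Leaving out any single array ended none of 7 calls, those of Adgre4, Cd36, Adgre1, F13a1, Treml4, Lyz2 and Lyz1, and the other 7 of the 14 depended on 1 array or more. Vcan was no longer called, at 0.0573 to 0.0909 (limma adjusted p here and below), without IL2 replicate 2 or untreated replicate 3 or 4. Cd14 lost it without IL2 replicate 2 or 3 or untreated replicate 4 (0.0572 to 0.0852), and Csf1r without these or untreated replicate 2 (0.0574 to 0.0987). Cebpb lost it without IL2 replicate 2 or 3 or untreated replicate 3 or 4 (0.0815 to 0.0997) and Cd68 without IL2 replicate 2 or 3 or any 1 untreated array (0.097 to 0.158). Fn1 held only without untreated replicate 3 and was otherwise at 0.0621 to 0.137, and Ace held in none of these fits (0.0512 to 0.118). The log2 fold changes of the 14 genes stayed below 0 in all 7 fits. By contrast, Msr1, Slc40a1 and Trem2 were called without untreated replicate 2. Monocyte genes numbered 4 lower without IL2 replicate 2 or untreated replicate 4 and 5 without IL2 replicate 3. Shared myeloid genes numbered 2 without 1 of these arrays or untreated replicate 2, and tissue macrophage genes 3 without untreated replicate 2.

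Other genes of the 2 lineages were counted from lists that do not overlap the members, though a gene can be in several lists. These lists too were chosen with earlier results of these data known. Of 19 growth factor and lineage regulator genes, 3 rose and 1 fell, with a median of 0.01. Id2, a helix-loop-helix inhibitor also central to NK cells, rose by 1.35 (limma adjusted p = 0.00114, SE 0.11) and Irf8, a factor of monocytes, dendritic cells and B cells, by 1.22 (limma adjusted p = 0.0134, SE 0.18). Csf1, the ligand of CSF1R and named after its value was seen, rose by 1.16 (limma adjusted p = 0.0194, SE 0.19), while Zeb2, a repressor active in monocytes and NK cells alike, had -0.68 (limma adjusted p = 0.0192, SE 0.11). With 1 array left out, the count of rises was as low as 1 (without IL2 replicate 2 or 3 or untreated replicate 4) and that of falls 0 (without IL2 replicate 2 or 4 or any untreated array). After a second quantile normalization 4 rose and 4 fell, and with the title style as a block 3 rose and 2 fell. Csf1 was at limma adjusted p-values of 0.0513 to 0.106 without IL2 replicate 2, 3 or 4 or untreated replicate 3 or 4.

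Of 25 further monocyte genes, 6 fell and 1 rose, with a median of -0.63. The largest falls were in Cd300ld, an activating receptor of myeloid cells, at -2.26 (limma adjusted p = 0.00144, SE 0.19), and the chemokine gene Ccl9 at -1.54 (limma adjusted p = 0.00664, SE 0.19). The others, named after their values were seen, were Cx3cr1, Hp, S100a4 and Apobec1, at -1.35, -1.30, -1.08 and -0.99. This list was not limited to genes that NK cells lack. Tnf, the inflammatory cytokine that NK cells also make, rose by 0.83 (limma adjusted p = 0.0143, SE 0.12), a call that ended, at limma adjusted p-values of 0.0616 to 0.0769, when IL2 replicate 2, 3 or 4 or untreated replicate 3 or 4 was left out. The count of falls was 3 without IL2 replicate 2, and it was 11 after a second quantile normalization. Ccr2, the chemokine receptor of classical monocytes that NK cells can also carry, differed by -0.01 (limma adjusted p = 0.994, SE 0.23) and was named after its value was seen.

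Of 21 further macrophage genes, 4 fell and 1 rose, with a median of -0.17. Hpgd, which degrades prostaglandins, had -2.67 (limma adjusted p = 0.00448, SE 0.30) and Sirpa, the inhibitory receptor for CD47, -1.38 (limma adjusted p = 0.017, SE 0.22). The others were the tetraspanin gene Cd81 and Ms4a7, at -0.81 and -0.46, named after their values were seen. Il18bp, a secreted inhibitor of interleukin 18, rose by 0.54 (limma adjusted p = 0.0488, SE 0.11), a call that ended without any 1 array and with the title style as a block. The count of falls was 1 without IL2 replicate 2 or 3 or untreated replicate 4 and 2 without untreated replicate 3. Sirpa lost its call without IL2 replicate 2 or 3 or untreated replicate 2 or 4 (0.0572 to 0.0919).

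Of 23 lysosomal and iron handling genes, 4 fell and 2 rose, with a median of -0.41. Lipa, the lysosomal acid lipase, had -1.70 (limma adjusted p = 0.00368, SE 0.18) and Lgmn, the protease legumain, -1.15 (limma adjusted p = 0.0265, SE 0.20). The others, named after their values were seen, were the protease gene Ctsl at -0.80 and Fth1, the heavy chain of the iron store ferritin, at -0.66. Tfrc, the transferrin receptor of dividing cells, rose by 0.94 (limma adjusted p = 0.0444, SE 0.19) and Ctsc, the protease that activates granzymes, by 0.69 (limma adjusted p = 0.0493, SE 0.14). The falls numbered 2 without IL2 replicate 2 or 3 or any untreated array and 11 after a second quantile normalization. The rises numbered 1 without IL2 replicate 1 or untreated replicate 2 and 0 without any other array. Lgmn kept its call only without IL2 replicate 1 or 4, Tfrc only without IL2 replicate 1 and Ctsc only without untreated replicate 2.

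Among genes that interferon-gamma is known to induce in macrophages, those called moved the other way over the same arrays. Of 16 such genes 7 rose and 0 fell (limma, with 9 and 0 at an unadjusted p under 0.05), beside 2.08% of all genes higher. Il18bp, the gene that rose among the further macrophage genes, is counted again among the 7. The median of the 16 was 0.71. The other 9 were not called. Log2 fold changes below 0 were found in 3 of them, H2-Ab1 at -0.29, Cd74 at -0.17 and Ciita at -0.08, named after their values were seen. Cxcl9 and Cxcl10, chemokines that attract cells carrying CXCR3, rose by 4.54 (limma adjusted p = 1.26e-05, SE 0.12) and 3.46 (limma adjusted p = 0.000234, SE 0.19). These genes are also induced in other cells, and the cells that carry the transcripts cannot be told from these values.

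Markers of other cells moved over the same arrays, and their part in the results above was not tested. Of 16 NK cell markers 8 rose and 0 fell (limma, with 13 and 0 at an unadjusted p under 0.05), with a median of 1.41, and their summed linear intensity lay between 9307 and 14591 in untreated and between 29052 and 35841 in IL2 arrays. Their brightest genes were Nkg7, a granule membrane protein, at 2.27 (limma adjusted p = 5.98e-05, SE 0.09), and Il2rb, the beta chain of the IL2 receptor, at 1.47 (limma adjusted p = 0.00554, SE 0.17). The NK cell markers did not move alike, and 8 were not called. They ranged from 0.09 in Klrd1 (limma adjusted p = 0.912) to 2.83 in Prf1 (limma adjusted p = 0.00238), both named after their values were seen. Of 14 neutrophil markers 1 fell, the collagenase gene Mmp8 at -2.49, named like the 2 below after its value was seen, with a median of -0.72 and sums of 12957 to 17764 against 7767 to 11670. The brightest, the granule protein genes Ngp and Lcn2, differed by -0.46 (limma adjusted p = 0.26, SE 0.17) and -0.66 (limma adjusted p = 0.196, SE 0.21). With the title style as a block 6 neutrophil markers were lower. Of 10 B cell markers 1 fell, the IgE receptor gene Fcer2a at -0.98, with a median of -0.29 and sums of 17671 to 20047 against 14951 to 16539, and the antigen receptor genes Cd79b and Cd79a differed by -0.29 (limma adjusted p = 0.123, SE 0.08) and -0.12 (limma adjusted p = 0.672, SE 0.09). The call of Fcer2a was lost without IL2 replicate 2 or 3 or any untreated array (0.0576 to 0.0891 by limma). After a second quantile normalization 4 B cell and 3 neutrophil markers were lower. By limma at an unadjusted p under 0.05, 8 neutrophil and 5 B cell markers were lower and 0 were higher. All 14 neutrophil and all 10 B cell markers had log2 fold changes below 0.

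For 14 dendritic cell markers, 1 fell, the lectin gene Cd209a at -1.71, and the median was 0.04, with sums of 6134 to 7050 against 5053 to 6432. After a second quantile normalization 2 of them were lower and 1 was higher. Their counts at an unadjusted p under 0.05 (limma) were 4 lower and 2 higher. Ccr7, a homing receptor, and Bst2, the restriction factor tetherin, were their brightest genes at -0.33 (limma adjusted p = 0.285, SE 0.12) and 0.75 (limma adjusted p = 0.118, SE 0.20). T cell markers had 0 of 11 called by limma, with 0 at an unadjusted p under 0.05, and a median of -0.05, with Cd3e at 0.01 (SE 0.34) and Cd3g at 0.16 (SE 0.18). Their sums were 2414 to 3767 against 2121 to 3721. Platelet markers had a median of -0.15, with Ppbp at -0.55 (SE 0.23) and Gp9 at -0.27 (SE 0.11). Of 6 erythroid markers 1 rose, the carbonic anhydrase gene Car1, at 1.00 (limma adjusted p = 0.0172, SE 0.16), a call lost without IL2 replicate 2, 3 or 4 or untreated replicate 2 or 4 (0.0554 to 0.0940), beside Car2 at 0.21 (SE 0.17). Their median was 0.12 and their sums were 1842 to 2273 against 2366 to 3203. Stromal and endothelial markers had 0 of 11 called by limma, 2 higher at an unadjusted p under 0.05 and 1 called higher without untreated replicate 2, and a median of -0.04, with sums of 1577 to 1697 against 1821 to 1905, Pecam1 at 0.51 (SE 0.17) and Col1a1 at -0.10 (SE 0.11). The 44 members summed to 37086 to 41638 in untreated and 15328 to 23238 in IL2 arrays, with no overlap.

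**Figure D4:**
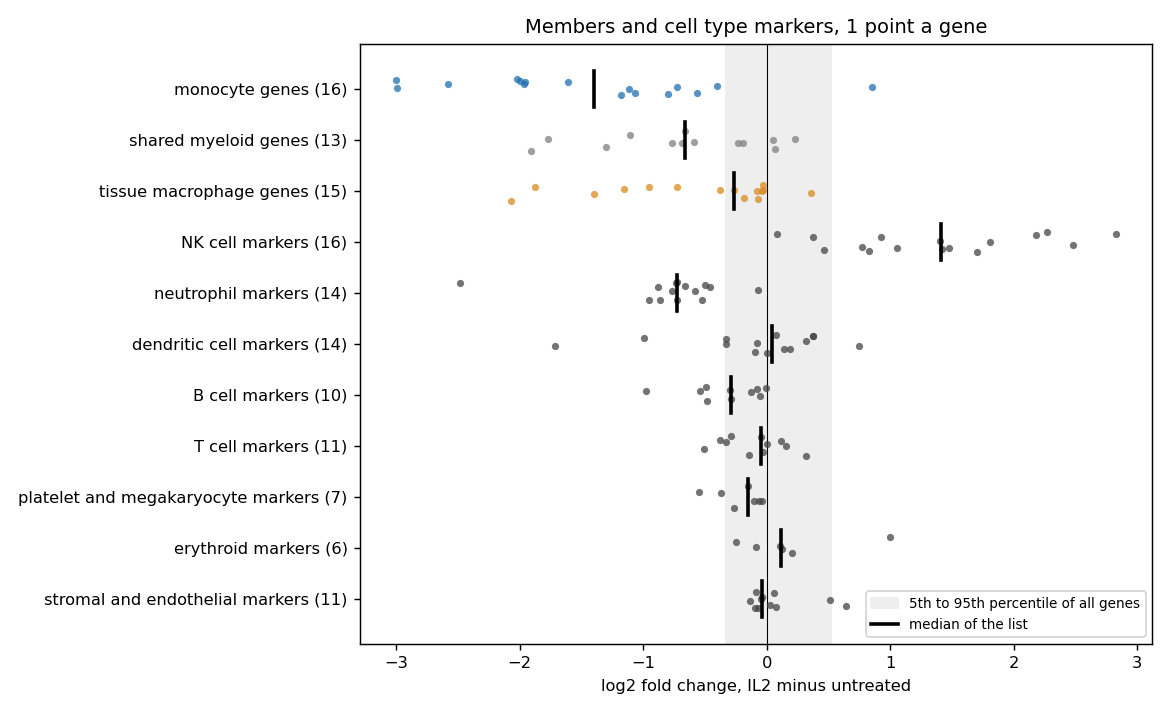
Log2 fold change (IL2 minus untreated, horizontal axis) of each gene in the 3 subsets of members and in 8 lists of cell type markers, 1 point a gene, with a black bar at each list's median and a grey band from the 5th to the 95th percentile of all genes (-0.33 to 0.52). The monocyte genes have the lowest median at -1.39 and the NK cell markers the highest at 1.41.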

How the data were processed

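The data were 7 Affymetrix arrays, 4 of cells with IL2 and 3 untreated, grouped by the sample titles. The deposited intensity values, 1 per probe and array, came, per the submitters' processing notes, from RMA in Affymetrix Power Tools, run by the authors. For versions and settings, nothing was given in the sources used here. These linear values, with no detection calls, were turned into log2 values without an offset. Of 24922 probes, 21425 carried 1 gene symbol in the platform annotation, 1399 several and 2098 none. The brightest single-symbol probe was kept for each of 19752 genes, with no filter on signal. A linear model of treatment (limma 3.58.1, R 4.3.3, default eBayes) was fitted to each gene. P-values were adjusted by Benjamini-Hochberg over all genes, with a threshold of 0.05. ± is the SD over arrays and SE that of the fit. The fit was tested on simulated data. The number of arrays limits the precision.

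The members, their subsets and the other lists were chosen with earlier results of these data known. All members are named. Values of every array are given for called members and the 2 brightest others of each subset. From the other lists come the 2 called genes of largest change in each direction, and from marker lists the 2 brightest. Alternatives were a second quantile normalization, median centring, replicate number or title style as a block, a filter at the median signal, eBayes with trend and robust, array weights (statmod 1.5.0), the mean of a gene's probes, each title style alone, and leaving out each array. No sample was left out. Replicate numbers were not used to pair the arrays in the main fit. The deviations of same-numbered arrays from their group means correlated at 0.46, -0.30 and 0.31 for replicates 2, 3 and 4. Those of IL2 replicate 1 and untreated replicate 3 correlated at 0.45. With so few arrays a group and 2 title styles, such values cannot settle whether the numbers pair the arrays.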

Additional observations from a re-analysis of the deposited data

Results flagged for a closer look

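In the IL2 group, the gap of 1 array to the nearest other was set against the range of the 4 arrays. For 3 of the 44 members this ratio passed Dixon's 95% critical value. Where no values are equal, chance alone passes it in about 1 of 20 groups. Axl was at 8.33 in IL2 replicate 3 and at exactly 8.21 on the other 3 arrays. Aif1 was at 6.11 in IL2 replicate 4 and at exactly 6.06 on the others. With 3 equal values the ratio is 1 for any difference, so the outcome for Axl and Aif1 was fixed. Trem2 was at 7.81 in IL2 replicate 1, while the others lay between 7.65 and 7.67. None of the 3 genes was called.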

How the results depend on the processing

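No called member changed sign under any of the 17 alternatives. Counted over pairs of a member and an alternative, calls were lost in 60 and gained by uncalled members in 43. With the replicate block, 21 members were lower and 1, Fcgr4, was higher, and 6 tissue macrophage genes were lower. In that fit 184 of all 19752 genes were lower and 554 higher. With title style as a block 23 members were lower, 6 of them tissue macrophage genes. After a second quantile normalization 25 were lower (14 monocyte, 4 tissue macrophage and 7 shared myeloid genes). Tissue macrophage genes lower numbered 2 under trend and robust and under array weights, and 3 with the dimmer genes removed at the median signal, where the median of the 6 retained was -1.28. Of all genes tested, 182, 159 and 217 were lower in these fits, the last out of 9876. Arrays with the time gave 6 members lower (4 monocyte, 2 tissue macrophage, 0 shared myeloid), with a shared median of -0.47. Those without it hold 1 lone untreated array, which is assumed to vary as the rest do, and gave a tissue macrophage median of -0.074. With 1 array left out the falls ranged from 7 to 13 over all members, 4 to 8 for monocyte, 1 to 3 for tissue macrophage and 2 to 4 for shared myeloid genes, and the tissue macrophage median from -0.45 to -0.14. Over all genes, 410 higher and 178 lower became 694 and 577 after quantile normalization.

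Uncalled members near 0 changed sign in 23 pairs of a member and an alternative. After quantile normalization Cd163 was at 0.022, Timd4 at 0.0099, Marco at 0.020 and Ctsd at -0.040, and with centred arrays Cd163 was at 0.00056. Over the arrays with the time Vcam1 was at 0.0031 and Ctss at 0.025. Over the others Cd163 was at 0.10, Axl at -0.045, Timd4 at 0.012, Fcgr1 at -0.17, Ctsd at -0.26, Aif1 at -0.23, Marco at 0.044 and Mrc1 at 0.039. With 1 array left out Cd163 ranged from -0.075 to 0.010, Timd4 from -0.062 to 0.015, Vcam1 from -0.18 to 0.048, Ctsd from -0.056 to 0.22, Aif1 from -0.10 to 0.18 and Marco from -0.073 to 0.017. The causes were not tested.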
